A study of Mus musculus with 6 samples.

Results

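The Toll-like receptors Tlr1, Tlr2, Tlr3, Tlr4, Tlr6, Tlr7, Tlr8 and Tlr9, the co-receptor Cd14 and the adaptor Myd88 were examined in mouse liver. These 10 genes were taken by symbol from the 52459 rows of a gene count matrix; the rule used no measured value, but the list was drawn up with earlier results of these data known. All 10 passed the filter on low counts, as did 17032 rows in all, and the comparison was of 3 livers labelled sgPrdx2 with 3 livers labelled sgCtrl.

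All 6 livers came from male C57BL6J mice, the first-generation offspring of a cross that carried Cas9 and Alb-Cre, a Cre recombinase driven by the albumin promoter. Cas9 was therefore active in hepatocytes, while the immune, endothelial and stromal cells of the liver were not a target of the editing. The mice received the adeno-associated vector AAV8-U6 by vein at 4 to 5 weeks of age, with a guide against GFP (sgCtrl) or against Prdx2 (sgPrdx2), a peroxidase that removes hydrogen peroxide. Both groups then received the liver carcinogen DEN (diethylnitrosamine, 100 mg/kg) 3 weeks later and, after 1 more week, a choline-deficient, amino acid-defined high-fat diet (CDAHFD) for 6 months, and were 8 months old at collection. The controls thus had the same exposure to carcinogen and diet as the edited mice. Libraries were made from total RNA of whole liver.

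Toll-like receptors are membrane proteins that recognize conserved microbial molecules and molecules released by damaged cells. Those that sense lipids and proteins sit at the cell surface, and those that sense nucleic acids sit in endosomes. All of them except TLR3 pass the signal through the adaptor MyD88 to IRAK kinases, TRAF6, NF-κB and IRF factors, which induce cytokines and chemokines. In liver these genes are transcribed in Kupffer cells and other macrophages, dendritic cells and lymphocytes, and several also in sinusoidal endothelial cells, stellate cells and hepatocytes. In fatty liver disease the pathway is known as a means by which liver macrophages sense bacterial products that arrive from the gut in portal blood.

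The 10 genes were all lower in sgPrdx2 than in sgCtrl livers, with log2 fold changes from -1.61 for Tlr8 to -0.21 for Myd88 and a median of -0.59. The median over all genes tested was -0.02. In 9 of the 10 genes every sgPrdx2 liver lay below every sgCtrl liver, an arrangement seen in 17.5% of all genes tested, and 8 of the 10 had an unadjusted p under 0.05 in this direction, against 11.9% of all genes tested. One of the 10, Tlr7, passed the test at an adjusted p under 0.05 (edgeR's quasi-likelihood test, Benjamini-Hochberg adjustment over all genes tested), where 1.54% of all genes were called lower and 1.79% higher. None of the 10 was called higher. Prdx2 RNA itself did not separate the groups, at 109, 117 and 132 CPM (counts scaled to the size of each library) in sgCtrl livers and 99.0, 112 and 149 CPM in sgPrdx2 livers (log2 fold change 0.01 ± 0.18 SE), and since Cas9 edits need not lower an RNA, the labels could not be checked from it. Because whole liver was sequenced, fewer cells of a type and less RNA per cell cannot be told apart in any value below.

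The promoters of 4 members are printed because all members were lower while the size of the difference varied between them. The sequences are RefSeq's for GRCm38.p6, 5′ to 3′ on the gene's strand, from 250 bases before to 50 bases after the transcript start, and 7 of the 10 members had at least 1 entry. Capitals mark matches on either strand to 4 motifs: GAGGAA, the core of sites for the myeloid factor PU.1, TGANTCA for AP-1, a pair of GAAA with any 2 bases between them for the interferon-stimulated response element (ISRE), and the NF-κB motif. Tlr8 (chrX:167264280-167264579, minus strand) and Tlr9 (chr9:106222348-106222647, plus strand) are shown as the members with the largest differences, Myd88 (chr9:119339969-119340268, minus strand) as the one with the smallest, and Tlr2 (chr3:83841559-83841858, minus strand) as the receptor with the highest level per length.
Tlr8: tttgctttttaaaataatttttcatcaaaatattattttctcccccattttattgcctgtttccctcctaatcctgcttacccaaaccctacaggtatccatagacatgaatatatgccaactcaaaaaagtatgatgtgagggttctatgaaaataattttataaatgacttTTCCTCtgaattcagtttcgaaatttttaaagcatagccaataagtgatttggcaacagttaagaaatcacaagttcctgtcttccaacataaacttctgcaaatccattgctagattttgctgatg
Tlr9: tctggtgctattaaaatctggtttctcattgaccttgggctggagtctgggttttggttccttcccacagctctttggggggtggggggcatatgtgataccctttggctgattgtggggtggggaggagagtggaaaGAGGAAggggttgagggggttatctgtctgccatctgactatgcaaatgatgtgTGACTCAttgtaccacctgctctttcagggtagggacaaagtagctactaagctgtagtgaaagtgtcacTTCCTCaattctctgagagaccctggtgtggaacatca
Tlr2: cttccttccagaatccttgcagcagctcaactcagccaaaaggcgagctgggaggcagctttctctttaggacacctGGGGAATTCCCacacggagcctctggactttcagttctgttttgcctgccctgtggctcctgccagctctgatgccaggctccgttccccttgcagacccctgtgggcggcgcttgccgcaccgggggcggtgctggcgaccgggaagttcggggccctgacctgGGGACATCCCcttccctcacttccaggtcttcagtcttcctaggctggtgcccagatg
Myd88: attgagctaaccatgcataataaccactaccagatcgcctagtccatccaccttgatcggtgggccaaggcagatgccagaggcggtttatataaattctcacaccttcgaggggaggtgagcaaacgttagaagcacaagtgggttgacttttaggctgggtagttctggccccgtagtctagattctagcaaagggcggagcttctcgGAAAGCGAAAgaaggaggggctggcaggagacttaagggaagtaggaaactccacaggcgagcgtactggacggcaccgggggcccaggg
The Tlr8 window held 1 PU.1 core, on the opposite strand 77 bases before the start. Tlr9 held PU.1 cores at -112 and 13 from the start and an AP-1 match at -58. In Tlr2 the capitals are NF-κB matches at -173 to -172, where matches on both strands overlap, and at -8, and in Myd88 they are 1 ISRE match at -40. Among 32851 mouse promoters of the same length, 28.3% held a PU.1 core, 7.81% AP-1, 3.44% ISRE and 4.51% NF-κB. The windows not printed held a PU.1 core at -23 (Tlr1), an NF-κB match at -211 (Tlr3) and overlapping ISRE matches at -116 and -110 (Tlr6). These matches describe the letters only, and Tlr4, Tlr7 and Cd14 had no entry.

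**Figure D1:**
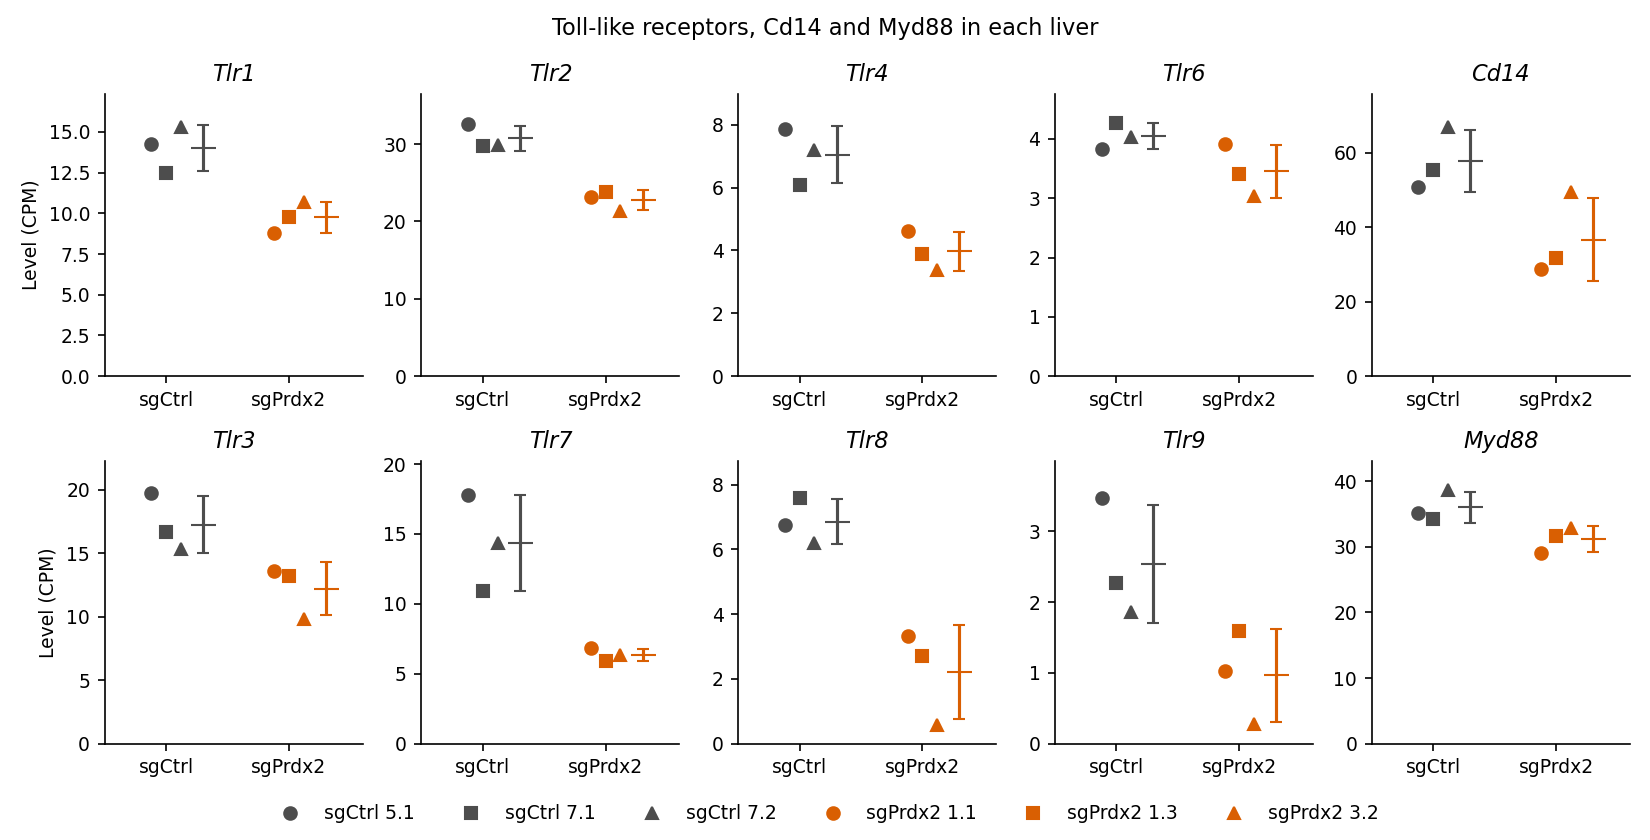
Level of each gene in CPM (y axis, from 0) in the 3 sgCtrl and 3 sgPrdx2 livers, with the mean ± SD beside the points. The groups do not overlap in 9 panels and overlap in that of Tlr6, and sgPrdx2 liver 3.2 holds the lowest Tlr8 and Tlr9 values.

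The first question was how the surface receptors and their co-receptor compared between the groups. Values are given in CPM, scaled with TMM factors, in the order 5.1, 7.1 and 7.2 for the sgCtrl livers and 1.1, 1.3 and 3.2 for the sgPrdx2 livers. Tlr2 (chr3:83836272-83841767), which pairs with TLR1 or TLR6 to bind bacterial lipopeptides, was at 32.6, 29.8 and 29.8 CPM in sgCtrl livers and at 23.1, 23.8 and 21.3 CPM in sgPrdx2 livers. The groups were tight and did not overlap, with means of 30.8 ± 1.64 and 22.8 ± 1.27 CPM (SD, n = 3 each), and the difference of -0.43 ± 0.11 (log2, SE) had an adjusted p of 0.0709. Tlr1 (chr5:64924679-64933563), the partner for triacylated lipopeptides, was at 14.3, 12.5 and 15.3 CPM in sgCtrl livers and 8.82, 9.76 and 10.7 CPM in sgPrdx2 livers. The highest sgPrdx2 value lay below the lowest sgCtrl value, and the log2 fold change was -0.52 ± 0.14 with an adjusted p of 0.0835. Tlr6 (chr5:64952031-64960097), the partner for diacylated lipopeptides, was at 3.84, 4.27 and 4.03 CPM against 3.92, 3.40 and 3.04 CPM. It was the 1 member whose groups overlapped, since sgPrdx2 liver 1.1 exceeded sgCtrl liver 5.1, and its difference of -0.23 ± 0.17 had an adjusted p of 0.447.

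Tlr1 and Tlr6 lie 18467 bases apart on chromosome 5 and are the most similar pair of receptors here, with 78.0% identical bases in their aligned coding sequences against 60.06% to 66.56% in the other pairs. Of the 50-base stretches in their transcripts, 454 were common to both genes. In all, 15.4% of the stretches of Tlr1 and 12.32% of those of Tlr6 also occurred in another gene, so part of their reads could not be assigned by sequence alone. The per-length ratio of Tlr1 to Tlr6 was 4.14, 3.25 and 4.22 in sgCtrl livers and ran from 2.51 to 3.93 in sgPrdx2 livers, and these ratios overlapped.

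Tlr4 (chr4:66827584-66930284), the receptor for bacterial lipopolysaccharide (LPS), was at 7.86, 6.07 and 7.19 CPM in sgCtrl livers and at 4.63, 3.90 and 3.38 CPM in sgPrdx2 livers. The groups were apart, with means of 7.04 ± 0.903 and 3.97 ± 0.626 CPM, and the log2 fold change of -0.82 ± 0.19 had an adjusted p of 0.0555. Cd14, the lipid-anchored protein that hands LPS to TLR4 and MD-2, was at 50.7, 55.3 and 66.9 CPM against 28.6, 31.8 and 49.5 CPM. Its groups did not overlap, but sgPrdx2 liver 3.2 came close to sgCtrl liver 5.1, and the difference of -0.65 ± 0.22 had an adjusted p of 0.129. Without liver 3.2 the Cd14 difference was -0.92 with an adjusted p of 0.0377. With any other single liver left out it ran from -0.74 to -0.50, with adjusted p of 0.203 to 0.302, by edgeR. In that liver Tlr4 and Cd14 thus lay at opposite ends of their group, and the per-length ratio of Tlr4 to Cd14 was 0.0213 there against 0.0335 to 0.0503 in the other livers.

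Of the endosomal receptors, Tlr7, Tlr8 and Tlr9 had log2 fold changes below -1, farther from 0 than any surface receptor, while that of Tlr3 lay among those of the surface receptors. The SE ranges of Tlr7 and Tlr9 overlapped that of Tlr4, and this order was not tested. Without sgPrdx2 liver 3.2 Tlr9 was at -0.94 and Tlr4 at -0.71. Tlr7 (chrX:167304929-167330558), which binds single-stranded RNA, was at 17.8, 10.9 and 14.4 CPM in sgCtrl livers and at 6.81, 5.92 and 6.33 CPM in sgPrdx2 livers. All sgPrdx2 livers were close to each other and well below the lowest sgCtrl liver, with means of 14.4 ± 3.44 and 6.35 ± 0.448 CPM. Tlr7 fell by 1.18 on the log2 scale (SE 0.20, adjusted p = 0.0373), to 44.3% of the sgCtrl level. This call did not hold without sgCtrl liver 5.1 (-0.99, adjusted p = 0.118), without sgCtrl liver 7.2 (-1.17, 0.143), without sgPrdx2 liver 1.1 (-1.23, 0.144) or without sgPrdx2 liver 1.3 (-1.11, 0.0843), all by edgeR, while without sgCtrl liver 7.1 and without sgPrdx2 liver 3.2 it was kept. In the fits that lost the call edgeR called 0 genes over all tested, in either direction. Tlr7 had unadjusted p of 0.00104 to 0.00239 in them.

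Tlr8 (chrX:167242696-167264329), an RNA receptor that is the chromosomal neighbor of Tlr7 at a distance of 40599 bases, was at 6.76, 7.58 and 6.20 CPM in sgCtrl livers and at 3.33, 2.72 and 0.584 CPM in sgPrdx2 livers. The sgCtrl livers were alike, and sgPrdx2 liver 3.2 stood far below the other sgPrdx2 livers with 19 counts (95% Poisson interval 11.4 to 29.7, counting error only). The log2 fold change of -1.61 ± 0.49 had an adjusted p of 0.103. Without liver 3.2 it was -1.17 with an adjusted p of 0.0376, so the smaller difference passed the test. With any other single liver left out Tlr8 did not pass, with adjusted p of 0.153 to 0.213, by edgeR. Tlr7 and Tlr8 shared no 50-base stretch with each other or with another gene. Their per-length ratio, Tlr8 to Tlr7, was 0.433, 0.792 and 0.491 in sgCtrl livers and 0.556, 0.523 and 0.105 in sgPrdx2 livers, so only liver 3.2 lay outside the sgCtrl range.

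Tlr9 (chr9:106222598-106226883), the receptor for DNA with unmethylated CpG, was at 3.47, 2.27 and 1.86 CPM against 1.03, 1.59 and 0.276 CPM. The groups did not overlap, yet the gap between sgCtrl liver 7.2 and sgPrdx2 liver 1.3 was small, and liver 3.2 was again the lowest with 9 counts (95% Poisson interval 4.12 to 17.1). Its difference of -1.35 ± 0.52 had an adjusted p of 0.161. Tlr3 (chr8:45395665-45411080), which binds double-stranded RNA and signals through TRIF instead of MyD88, was at 19.8, 16.7 and 15.4 CPM against 13.6, 13.2 and 9.80 CPM. The groups were apart, and the log2 fold change was -0.50 ± 0.17 with an adjusted p of 0.133. An antisense gene, Gm45542, overlaps 7.32% of the exon bases of Tlr3, and the strand setting of the counting is not given in the sources used here.

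Myd88 (chr9:119335934-119341411), the adaptor of every receptor named so far except TLR3, was at 35.1, 34.3 and 38.7 CPM in sgCtrl livers and at 29.0, 31.7 and 33.0 CPM in sgPrdx2 livers. The groups did not overlap but lay close together, with means of 36.0 ± 2.36 and 31.2 ± 2.01 CPM, and the difference of -0.21 ± 0.12 had an adjusted p of 0.302. On the opposite strand, Acaa1a, which encodes a peroxisomal thiolase of fatty acid oxidation, overlaps 11.26% of the exon bases of Myd88. Acaa1a stood at 142 ± 9.33 CPM in sgCtrl and 227 ± 39.5 CPM in sgPrdx2 livers, the opposite direction to Myd88, and its part in the Myd88 value was not tested. The per-length ratio of Tlr7 to Myd88 was 0.319, 0.201 and 0.235 in sgCtrl livers and 0.148, 0.118 and 0.121 in sgPrdx2 livers. This was the 1 of 4 ratios between members whose groups did not overlap (exact permutation test over livers, two-sided, p = 0.1, below which 3 against 3 livers cannot go, and 0.4 after Benjamini-Hochberg adjustment over the 4 ratios). It sets the only member called against the member with the smallest difference, so its separation largely restates values already given. For the other 3 ratios the exact p was 0.2 (Tlr1 to Tlr6), 0.6 (Tlr8 to Tlr7) and 0.9 (Tlr4 to Cd14).

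**Figure D2:**
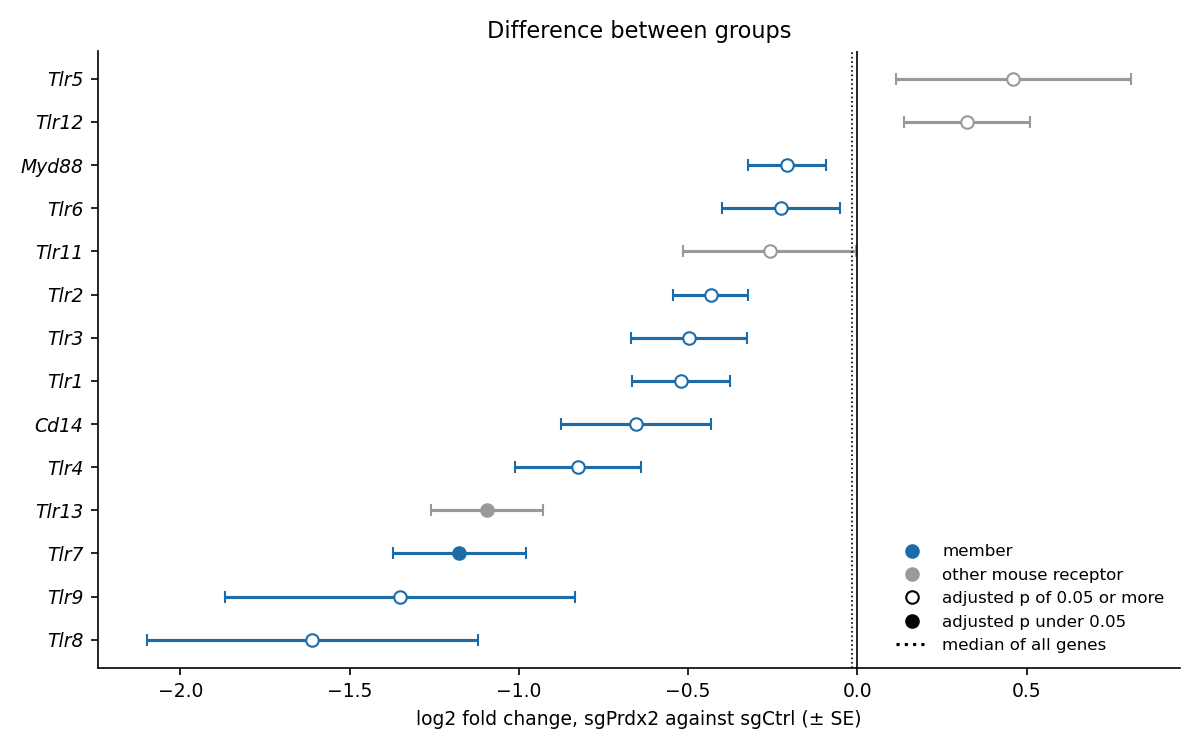
Log2 fold change of sgPrdx2 against sgCtrl livers (x axis) with its SE for the 10 members and the other 4 mouse receptors, sorted by size. Filled points passed the test (Tlr7 and Tlr13), and all members lie left of the dotted median of all genes, -0.02.

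The differences were spread over the sgPrdx2 livers. Against the mean of the sgCtrl livers, each of the 3 sgPrdx2 livers had all 10 genes lower, with a median log2 ratio over the members of -0.64 in liver 1.1, -0.60 in liver 1.3 and -0.67 in liver 3.2. Liver 3.2 held the lowest of the 6 values for 6 of the members, liver 1.1 for 3 and liver 1.3 for 1. Relative to the mean, the widest spread among sgPrdx2 livers was that of Tlr8 and Tlr9, which also held the lowest single counts of all members.

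Levels of the members were compared with each other per length, as CPM per kilobase of exon (RPKM). In sgCtrl livers Cd14 had the highest level (33.3 ± 4.81 RPKM), followed by Myd88 (14.0 ± 0.915), Tlr2 (10.2 ± 0.543), Tlr1 (4.19 ± 0.430), Tlr7 (3.52 ± 0.842), Tlr3 (3.31 ± 0.435), Tlr8 (1.91 ± 0.194), Tlr4 (1.27 ± 0.162), Tlr6 (1.09 ± 0.0581) and Tlr9 (0.729 ± 0.240). The order of Cd14, Myd88, Tlr2 and Tlr1 held in each of the 6 livers. Tlr1 and Tlr7, Tlr7 and Tlr3, and Tlr4 and Tlr6 had overlapping ranges in sgCtrl livers and did not differ beyond their spread. In sgPrdx2 livers Tlr7 was at 1.56 ± 0.110 RPKM, below Tlr3 (2.34 ± 0.403) in every liver, and Tlr4 (0.714 ± 0.113) was below Tlr6 (0.927 ± 0.118).

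The receptors outside the list were read in the same livers. Tlr13, an endosomal sensor of bacterial ribosomal RNA, was at 43.9, 28.5 and 35.9 CPM in sgCtrl livers and at 16.7, 16.8 and 17.2 CPM in sgPrdx2 livers, and fell by 1.09 on the log2 scale (SE 0.17, adjusted p = 0.0358). Like that of Tlr7, this call was lost, along with those of all other genes, without sgCtrl liver 5.1 (adjusted p = 0.118), without sgCtrl liver 7.2 (0.143), without sgPrdx2 liver 1.1 (0.144) and without sgPrdx2 liver 1.3 (0.0785), by edgeR. Its pattern resembled that of Tlr7, with sgPrdx2 livers close together and sgCtrl liver 5.1 highest. Tlr12, a receptor for parasite profilin, was at 20.1, 19.2 and 14.7 CPM against 24.9, 17.6 and 25.1 CPM (log2 fold change 0.32 ± 0.19, adjusted p = 0.317). Tlr5, the flagellin receptor, was at 2.97, 4.72 and 2.53 CPM against 6.56, 4.60 and 2.83 CPM (0.46 ± 0.35, 0.440). Tlr11, the partner of TLR12, was at 1.92, 1.27 and 1.79 CPM against 1.48, 1.13 and 1.57 CPM (-0.26 ± 0.26, 0.555). The groups overlapped for Tlr5, Tlr11 and Tlr12. With size factors from housekeeping genes, under which the median of all genes moved to -0.38, the median of the members was -0.97, or -0.59 relative to all genes, against -0.57 with the TMM factors. On that scale positive values smaller than this shift change sign. The housekeeping genes were themselves mostly higher in sgPrdx2 livers with TMM factors. Atp5b was at 0.45, Bag6 at 0.26, Cox8a at 0.65, Hint1 at 0.42 and Ndufa2 at 0.68, while Hnrnpa2b1 was at -0.07, with none called.

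Summed per length over the 12 mouse receptors, the RNA stood at 46.3, 38.5 and 39.6 RPKM in sgCtrl livers and at 31.2, 28.4 and 28.4 RPKM in sgPrdx2 livers. Within this sum Tlr2 kept a similar share, 24.7% ± 1.16 in sgCtrl and 25.8% ± 1.77 in sgPrdx2 livers (SD, n = 3). Tlr7 took 9.41%, 6.93% and 8.89% of it in sgCtrl livers and 5.34%, 5.11% and 5.47% in sgPrdx2 livers, and Tlr13 took 20.1% ± 2.57 against 13.4% ± 0.901. The share of Tlr12 was 13.7% ± 2.01 in sgCtrl and 24.2% ± 4.24 in sgPrdx2 livers, without overlap, although its CPM values did overlap. Shares sum to a fixed total. The share of Tlr12 thus depends on its own level, at 5.67 ± 0.904 RPKM in sgCtrl and 7.09 ± 1.34 RPKM in sgPrdx2 livers, as well as on the lower sum. Not every other receptor was lower, as Tlr5 was at 0.711 RPKM in sgCtrl and 0.974 RPKM in sgPrdx2 livers.

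**Figure D3:**
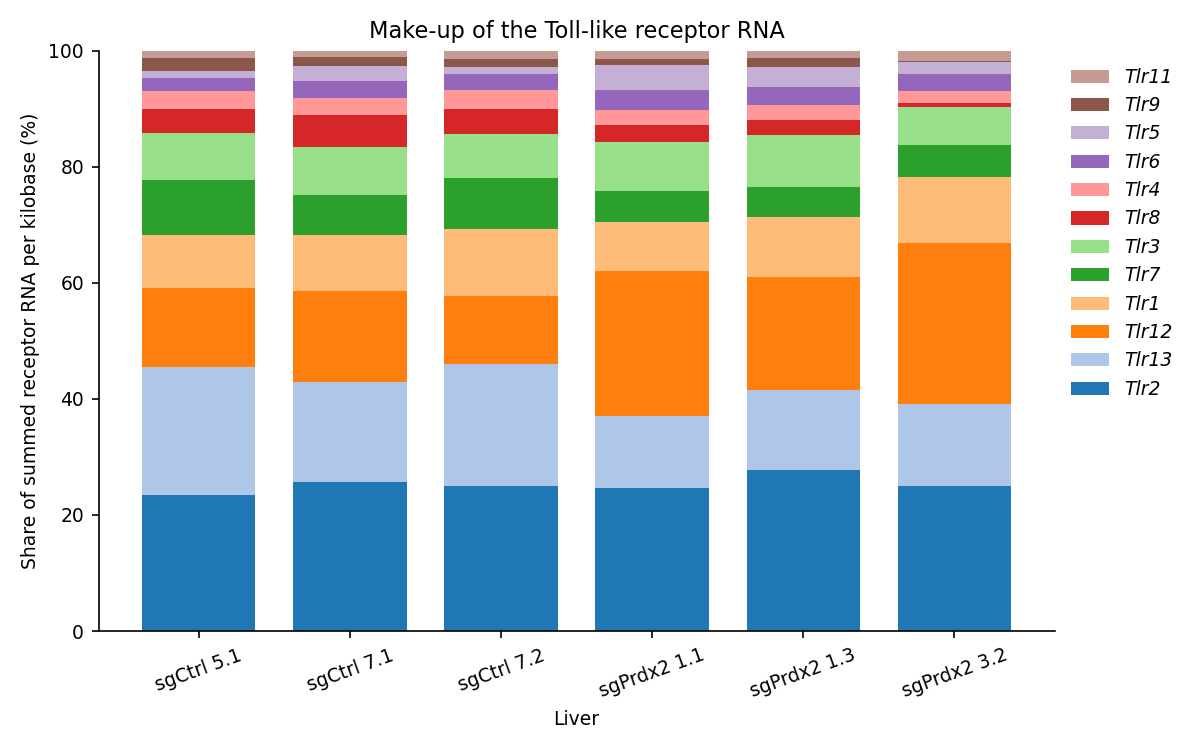
Share of each of the 12 mouse Toll-like receptor genes in their summed RNA per kilobase (y axis, percent), 1 bar per liver. The bands of Tlr7, Tlr8 and Tlr13 are narrower in the sgPrdx2 livers and that of Tlr12 is wider, while Tlr2 stays between 23.4% and 27.8%.

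The other genes of the pathway were read from a list of 76 genes, of which 73 were tested. Of these, 53 were lower and 20 higher, with a median log2 fold change of -0.22, and 23 lay below and 6 above without overlap between the groups. Over all genes tested, 17.5% lay below and 16.7% above without overlap. By edgeR 6 were called lower (Tlr13, Cd180, Cxcl2, Ccl3, Tnc and Vcan) and 0 higher, against 1.54% and 1.79% of all genes. At an unadjusted p under 0.05 there were 19 lower and 2 higher, where all genes gave 11.9% lower and 13% higher. DESeq2 called 12 lower and 1 higher, against 6.07% and 7.89% of the genes it tested. The 12 were Tlr13, Cd36, Cd180, Ticam2, Irak3, Tnfaip3, Tnf, Cxcl2, Ccl3, Acod1, Tnc and Vcan, and the higher gene was Il1rap. Without sgCtrl liver 5.1 or 7.2, or without sgPrdx2 liver 1.1 or 1.3, 0 of the 73 genes were called in either direction, and 0 of all genes tested. Tlr13, Cd180 and Tnc were still called without sgCtrl liver 7.1 and without sgPrdx2 liver 3.2, and Cxcl2 (adjusted p 0.0580 to 0.165), Ccl3 (0.0539 to 0.179) and Vcan (0.0577 to 0.163) passed in none of the 6 fits with 1 liver left out, by edgeR.

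Among the 5 ligand-handling and accessory proteins, 4 were lower and 1, Cd180, was called by edgeR. The lower ones include Ly96 (MD-2), whose groups overlapped at 7.26 ± 0.627 CPM in sgCtrl and 7.04 ± 0.892 CPM in sgPrdx2 livers (-0.05, adjusted p = 0.869). Lbp was higher without overlap, at 84.9 ± 2.68 CPM in sgCtrl and 98.7 ± 3.07 CPM in sgPrdx2 livers (0.22, adjusted p = 0.286). Cd180, a TLR4-like surface protein of B cells and macrophages, fell by 1.20 on the log2 scale (adjusted p = 0.0328, and 0.0289 to 0.143 with 1 liver left out). Cd36, a scavenger receptor that passes lipids to TLR2 and TLR6, was at 477 ± 61.9 CPM in sgCtrl and 290 ± 33.8 CPM in sgPrdx2 livers (-0.72, adjusted p = 0.0555). The genes for receptor folding and transport did not move together. Unc93b1, which carries the nucleic acid receptors to endosomes, was at -0.35 (adjusted p = 0.151) and Cnpy3, a folding partner of Hsp90b1, at 0.38 (0.247), and 2 of these 4 genes were lower and 2 higher. The median of the 5 other TIR adaptors was -0.28 and none was called by edgeR. Ticam2, the bridging adaptor TRAM of TLR4, was at -0.81 (adjusted p = 0.0721) and Pik3ap1, which links receptors to PI3 kinase, at -0.74 (0.235).

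Among the downstream signaling genes none passed edgeR's test in the main fit. DESeq2 called Irak3 and Tnfaip3 lower and Il1rap higher, and housekeeping scaling called Irf5 and Irak3 lower. The 13 kinases and ubiquitin ligases had a median log2 fold change of -0.20, with Traf3 at -0.49 (adjusted p = 0.147) and Ikbke at 0.30 (0.234), and none passed the test. The 10 NF-κB and IRF genes also had a median of -0.20 with none called. Nfkb1, the p50 subunit of NF-κB, was at -0.48 (adjusted p = 0.156) and Ikbkg, the scaffold of the IκB kinase, at -0.37 (0.159). Of 7 inhibitors of the pathway, 5 were lower (median -0.16) and none was called; Irak3, which blocks the IRAK complex, was at -0.64 (adjusted p = 0.0640) and Tnfaip3, the deubiquitinase A20, at -0.66 (0.101). The 6 interleukin receptors that also use MyD88 had a median of -0.24. Il1rap, the shared chain of the interleukin-1 receptor family, was at 48.2 ± 10.3 CPM in sgCtrl and 79.6 ± 8.75 CPM in sgPrdx2 livers (0.72, adjusted p = 0.0659), and Il1rl2, the interleukin-36 receptor, at -0.37 (0.225).

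The induced cytokines and enzymes had the lowest median of any group, -0.69, with 11 of 13 tested genes lower and 2 called. Cxcl2, a neutrophil chemokine, fell by 1.08 on the log2 scale (adjusted p = 0.0463), and Ccl3, a macrophage chemokine, by 0.75 (0.0491), and neither call held with any 1 liver left out. Il6, Il10 and Ifnb1 were not tested, with at most 12 counts in any liver. Of the 6 endogenous ligands, 5 were lower and 2 were called, both matrix proteins known to bind these receptors: Tnc fell by 1.14 (adjusted p = 0.0313, and 0.0376 to 0.143 with 1 liver left out) and Vcan by 1.06 (0.0483), a call that held in none of those fits.

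**Figure D4:**
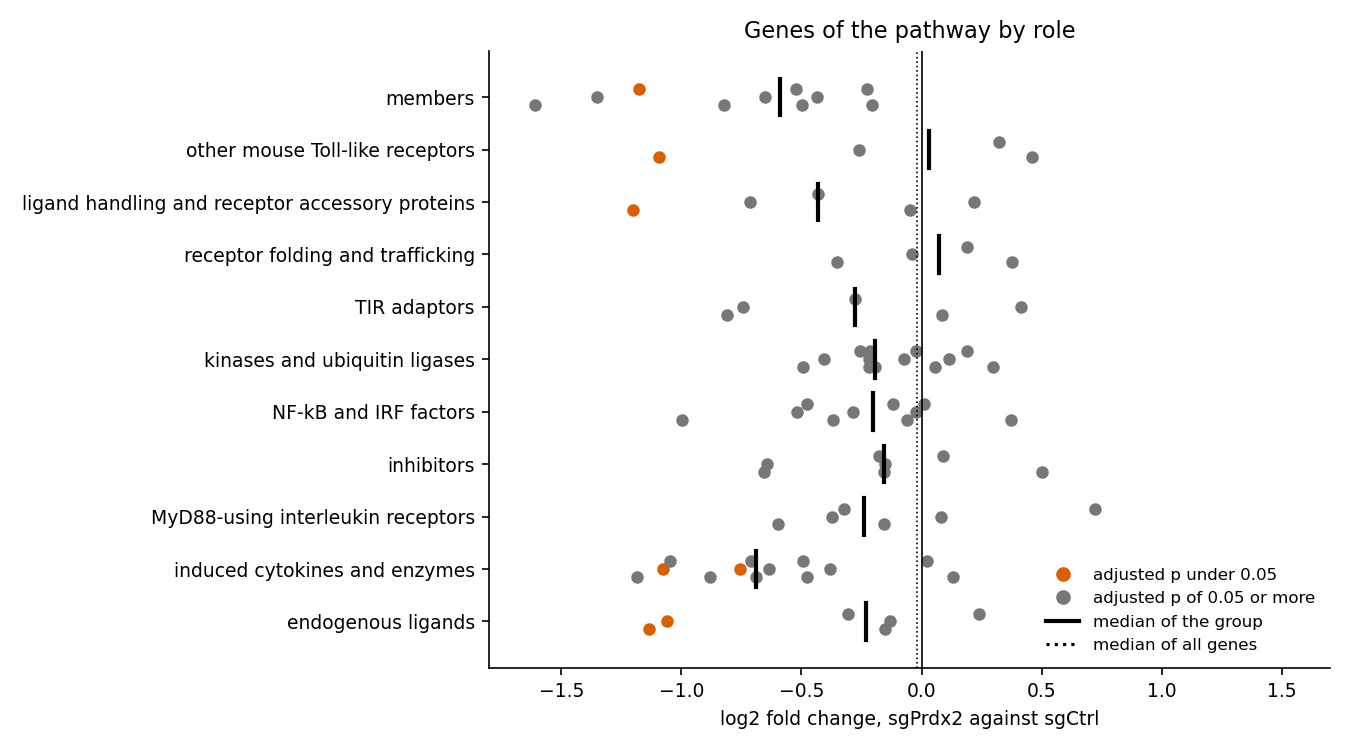
Log2 fold change of sgPrdx2 against sgCtrl livers (x axis) for each tested gene, 1 row per role in the pathway, with the median of each row as a bar. The members' median of -0.59 and the induced genes' median of -0.69 lie farthest to the left, and the kinases and NF-κB and IRF genes lie near -0.20.

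Genes whose profile over the 6 livers was most like the mean profile of the members were sought among 14113 other genes, by the root mean square difference of centered log2 CPM. The nearest were Pecam1 (0.025), which is also among the endothelial markers below, Rnf157 (0.050), Ikzf1 (0.057), Prkcd (0.060) and Fyb (0.061), against a median of 0.47 over all genes compared. Their log2 fold changes ran from -0.85 for Prkcd to -0.70 for Ikzf1. Only the 6 livers enter this measure, and nothing about shared function follows from it.

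Markers of leukocytes, macrophages and dendritic cells, which transcribe these genes, were lower in the sgPrdx2 livers as well, and so were those of some other cell types below. The 4 general leukocyte markers (Ptprc, Itgb2, Cd53 and Laptm5) were all lower, 3 of them called, with a summed level of 483 to 595 CPM in sgCtrl and 275 to 300 CPM in sgPrdx2 livers. Of the 9 macrophage and monocyte markers 8 were tested and all 8 were lower, 2 of them called, from Itgam at -1.24 to Lyz2 at -0.33, with sums of 3068 to 3294 CPM against 2026 to 2855 CPM. The 6 Kupffer cell markers were all lower (Cd5l at -0.56 to Timd4 at -0.02), none called, but their sums overlapped widely, at 150 to 539 CPM against 172 to 296 CPM. The conventional dendritic cell markers (5 of 5 lower, Itgax at -0.56 to Zbtb46 at -0.06, 113 to 140 CPM against 79.3 to 101 CPM) and the plasmacytoid dendritic cell markers (3 of 3 lower, Ccr9 at -0.75 to Siglech at -0.30, 5.02 to 7.56 CPM against 3.38 to 5.22 CPM) were lower as well, with none called. The plasmacytoid dendritic cell sums overlapped between the groups. The part of these marker shifts in the members' values was not tested.

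Lymphocyte, neutrophil and other markers gave a mixed picture. The summed markers of neutrophils, stellate cells and cholangiocytes were lower without overlap (log2 ratio of mean sums -0.45, -0.36 and -0.45). The macrophage and monocyte sum was at -0.46 on this measure. Of the B cell markers 2 of 5 were lower (Ms4a1 at -0.19 to Cd79b at 0.44), with sums of 13.4 to 17.1 CPM against 16.3 to 19.5 CPM, and of the T cell markers 5 of 6 (Cd8a at -0.84, called, to Cd4 at 0.05), with 21.5 to 30.8 CPM against 18.3 to 22.9 CPM. Of the 4 neutrophil markers tested 3 were lower (Mmp8 at -1.10 to Retnlg at 0.11; 17.1 to 19.7 CPM against 12.7 to 14.8 CPM), and Ly6g had at most 2 counts in any liver. Sinusoidal endothelial markers were lower in 4 of 5 genes (Lyve1 at -1.23 to Stab2 at 0.27; 184 to 212 CPM against 138 to 209 CPM), with Pecam1 called at -0.77 (adjusted p = 0.0423), stellate cell markers in 3 of 5 (Lrat at -0.71 to Reln at 0.15; 775 to 993 CPM against 609 to 723 CPM) and cholangiocyte markers in 5 of 5 (Krt19 at -0.59 to Sox9 at -0.08; 1624 to 1852 CPM against 1216 to 1389 CPM). All 8 hepatocyte markers were higher (Hnf4a at 0.30 to Ttr at 1.35), 4 of them called, with sums of 79232 to 85811 CPM against 135217 to 180457 CPM. Every marker had at least 1 count in some liver, and hepatocyte markers were abundant in all 6 livers, as the tissue label implies.

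The members were therefore also read relative to the summed markers in each liver, as CPM per 1000 CPM of markers, as a description. Relative to the macrophage and monocyte markers, Tlr7 was at 5.40, 3.55 and 4.44 in sgCtrl livers and at 3.36, 2.80 and 2.22 in sgPrdx2 livers. Tlr8 was at 2.05, 2.47 and 1.92 against 1.64, 1.28 and 0.204 on this scale. The sum is mostly Lyz2, which made up 61.0% to 65.3% of it in the sgCtrl livers and 65.5% to 73.0% in the sgPrdx2 livers, and which was the least changed of these markers. Tlr7 and Tlr8 were the members whose groups stayed apart, and Tlr1, Tlr2, Tlr3, Tlr4, Tlr6, Tlr9, Cd14 and Myd88 overlapped, with differences in mean log2 from -1.20 (Tlr9) to 0.27 (Myd88). Tlr13, which is not a member, was also lower without overlap on this scale, at 13.3, 9.28 and 11.1 against 8.23, 7.92 and 6.04. With Lyz2 left out of the sum, a choice made after seeing the data, Tlr7 (14.4, 10.2 and 11.4 against 9.85, 8.11 and 8.21) and Tlr8 (5.47, 7.12 and 4.92 against 4.81, 3.72 and 0.758) stayed lower without overlap, by a narrow gap, and Tlr1 and Myd88 were higher without overlap. Relative to the leukocyte markers no member was lower without overlap. On that scale Tlr1, Tlr2, Tlr6 and Myd88 were higher in every sgPrdx2 than in every sgCtrl liver, Myd88 at 59.0, 70.9 and 72.4 against 105, 105 and 112. The direction of these 4 genes therefore depended on the reference, being lower in CPM and higher per leukocyte marker RNA. The leukocyte sum was itself lower in every sgPrdx2 liver, with a log2 ratio of mean sums of -0.89. A gene with equal CPM in all livers would therefore also be higher without overlap on that scale. The share of all genes without overlap on these marker scales was not computed.

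**Figure D5:**
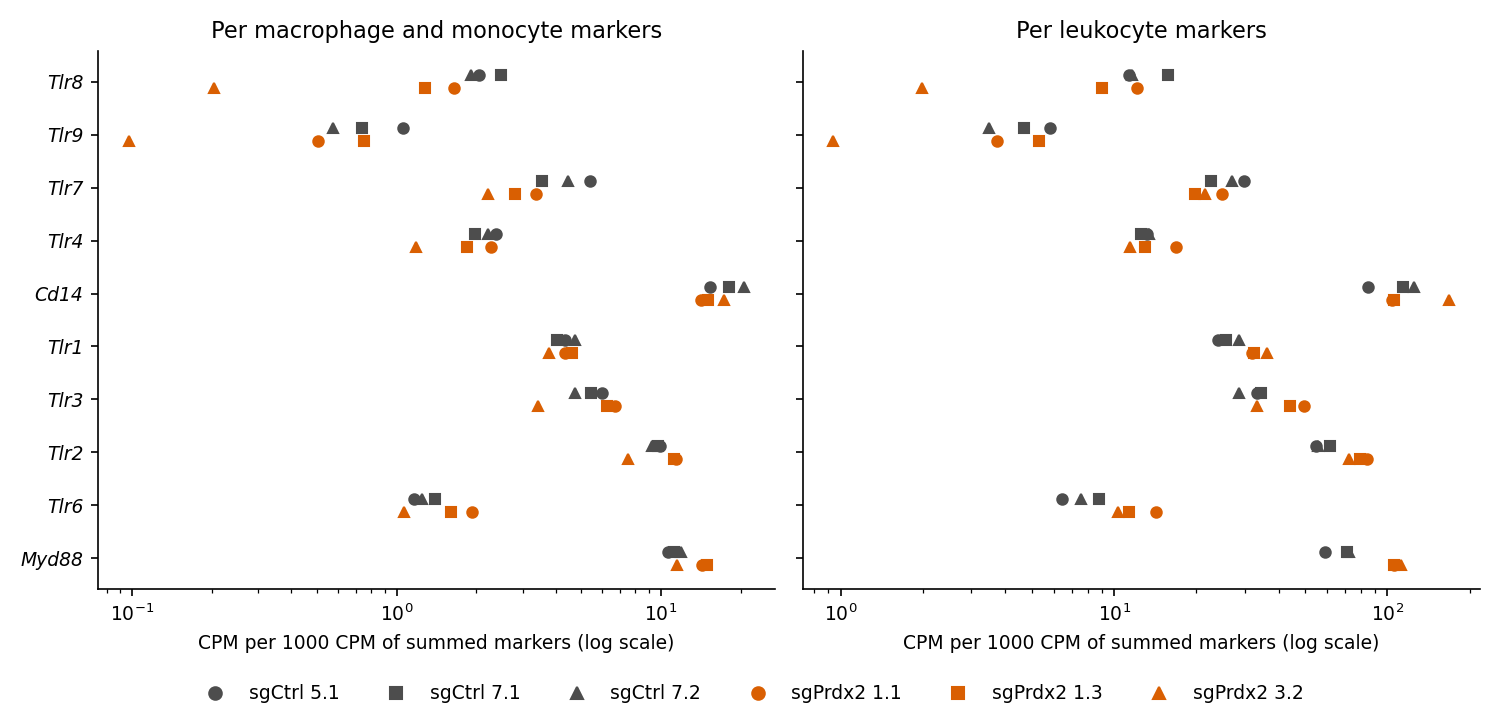
Members' levels as CPM per 1000 CPM of summed macrophage and monocyte markers (left) or leukocyte markers (right), on log x axes, 1 symbol per liver. Tlr7 and Tlr8 are lower without overlap on the left, and Tlr1, Tlr2, Tlr6 and Myd88 are higher without overlap on the right.

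The libraries held 37462102 to 56865293 counts, so that 3 counts, the limit of detection used here, were worth 0.0555 to 0.0921 CPM, and every member exceeded it in every liver. The sgCtrl livers had TMM factors from 1.12 to 1.17 and the sgPrdx2 livers from 0.805 to 0.951. Alb alone took 6.61% to 7.01% of all counts among the controls, against 9.28% to 11.3% after sgPrdx2. With housekeeping size factors 919 genes were called lower (5.4%) and 70 higher (0.411%), against 262 lower and 305 higher with TMM, and 5 members were called (Tlr1, Tlr2, Tlr4, Tlr7 and Cd14). DESeq2 called 6 of the members (Tlr1, Tlr2, Tlr4, Tlr7, Tlr8 and Tlr9), where it called 898 genes lower (6.07%) and 1168 higher (7.89%) in all. No 2 libraries agreed within sampling noise. The p-values set the difference between groups against the spread between livers, estimated with information from all genes tested. Whether the mice of a group shared a litter or cage is not given, and the p-values take the livers as independent.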

How the data were processed

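Total RNA of 6 mouse livers was sequenced. Per the labels the authors aligned reads to GRCm38 with HISAT2 and counted them per gene with HTSeq; versions, annotation release and strand setting are not given in the sources used here. The deposited matrix holds raw counts, and each column carries the mouse number of 1 sample. A second deposited table holds the authors' own DESeq2 comparison (mean signal, log2 fold changes with errors, Wald scores and p-values) and was not used.

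Counts were filtered with filterByExpr (minimum count 10), scaled with TMM and tested with the quasi-likelihood test of edgeR 4.0.16 in R 4.3.3, sgPrdx2 against sgCtrl, two-sided, without covariates, with Benjamini-Hochberg adjustment over 17032 genes and calls at adjusted p under 0.05. The script was tested on simulated data for this comparison, where 192 of 200 genes changed 4-fold were recovered among 17032. Alternatives were RLE, upper-quartile and housekeeping scaling, DESeq2 1.42.0, other filters and thresholds, and leaving out each liver. Levels per length used merged exons of GENCODE M21. The genes and lists were chosen with earlier results of these data known. Named were all members, the other mouse receptors, the 2 genes with the smallest p in each pathway group, the extremes of each marker list and the 5 genes of most similar profile; further names were chosen after their values were seen.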

Additional observations from a re-analysis of the deposited data

How the results depend on the processing

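All members kept a negative log2 fold change under every alternative in which they were tested. RLE and upper-quartile scaling and a minimum of 10 counts in every liver, under which Tlr9 was not tested, left 1 member called, and 5 or 6 other pathway genes called lower. Housekeeping scaling gave 919 genes called lower and 70 higher, 5 members and 16 pathway genes lower. DESeq2 gave 898 lower and 1168 higher, 6 members, and 12 pathway genes lower and 1 higher. Without the filter there were 484 lower and 644 higher, 3 members (Tlr4, Tlr7 and Tlr8), and 8 pathway genes lower and 1 higher. At adjusted p under 0.10 there were 803 lower and 964 higher, 4 members (Tlr1, Tlr2, Tlr4 and Tlr7), and 11 pathway genes lower and 1 higher. At 0.01 edgeR called 0 genes, members or pathway genes in either direction, while 4241 genes had an unadjusted p under 0.05. Leaving out 1 liver at a time, edgeR called 0 to 295 genes lower and 0 to 324 higher, 0 to 3 members, and 0 to 4 pathway genes lower and 0 to 1 higher, with 3114 to 4436 genes at an unadjusted p under 0.05. Calls were 0 over all genes tested without sgCtrl livers 5.1 or 7.2 and sgPrdx2 livers 1.1 or 1.3. Without sgPrdx2 liver 3.2 Tlr7, Tlr8 and Cd14 were called. Per macrophage and monocyte marker RNA, leaving Lyz2 out of the sum (chosen after seeing the data) kept 2 members lower without overlap and moved those higher without overlap from 0 to 2. The cause of these changes was not tested. No paired analysis was possible because the groups share no mouse numbers. Group sizes of 3 and the 9 to 19 counts of Tlr9 and Tlr8 in 1 liver limit the precision.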
